A study of Mus musculus with 16 samples.

Results

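The Zfp36 family of mRNA decay factors was followed in splenic B cells through the transcripts of its 3 members on the autosomes, Zfp36, Zfp36l1 and Zfp36l2. The members were taken by gene symbol, 3 of the 27928 genes with a value, and all 3 were among the 14761 genes tested. Follicular (FO) B cells, sorted as CD21lo CD23hi, and marginal zone (MZ) B cells, sorted as CD21hi CD23lo, came from spleens of C57BL/6 mice aged 8 to 12 weeks that were either WT or carried floxed Gtf2i alleles together with a Cre recombinase expressed in B cells (here cKO). RNA-seq gave 2 libraries for each of WT FO, WT MZ, cKO FO and cKO MZ B cells. The WT mice are not labelled as Cre carriers, so deletion of Gtf2i and presence of the Cre allele cannot be told apart. A further gene of the family, Zfp36l3, was no member and had at most 3.81 normalized counts in any library.

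Proteins of this family bind AU-rich elements in the 3′ untranslated region (UTR) of mRNAs through tandem CCCH zinc fingers. They recruit the CCR4-NOT deadenylase, after which the mRNA loses its poly(A) tail, is decapped and is degraded. Zfp36 (tristetraprolin, TTP) is known for restraining cytokine mRNAs such as Tnf, and its own mRNA is a target of the protein. Zfp36l1 is known as a factor that MZ B cells need, and Zfp36l1 and Zfp36l2 together are known to keep developing B cells quiescent.

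All 3 genes lie on the minus strand of GRCm38. Zfp36 (ENSMUSG00000044786.6) lies at chr7:28376784-28380253, Zfp36l1 (ENSMUSG00000021127.7) at chr12:80107754-80113013 and Zfp36l2 (ENSMUSG00000045817.8) at chr17:84183931-84187947. The coding sequences hold 319, 338 and 484 codons before the stop in that order. The stretch that codes for the RNA-binding fingers is shown because it is the shared part of the family. It lies in exon 2 of each gene, at chr7:28378044-28378217, chr12:80110075-80110248 and chr17:84186554-84186727, and each run below is 174 bases of the minus strand, with the codons of the zinc-binding cysteines and histidines in capitals.
Zfp36: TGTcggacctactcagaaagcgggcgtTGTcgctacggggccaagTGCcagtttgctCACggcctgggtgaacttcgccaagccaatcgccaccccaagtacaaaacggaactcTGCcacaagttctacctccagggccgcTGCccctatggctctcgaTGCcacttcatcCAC
Zfp36l1: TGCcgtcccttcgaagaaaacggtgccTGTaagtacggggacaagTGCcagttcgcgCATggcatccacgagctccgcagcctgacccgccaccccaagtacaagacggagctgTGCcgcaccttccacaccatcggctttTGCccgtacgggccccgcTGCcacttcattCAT
Zfp36l2: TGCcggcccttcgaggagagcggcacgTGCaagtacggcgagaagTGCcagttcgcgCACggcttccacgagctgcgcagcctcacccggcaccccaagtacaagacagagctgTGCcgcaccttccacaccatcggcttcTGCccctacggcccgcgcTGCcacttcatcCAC

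Over the 58 residues these stretches encode, Zfp36l1 and Zfp36l2 were identical at 54, Zfp36 and Zfp36l1 at 39, and Zfp36 and Zfp36l2 at 40. Over the whole proteins the identity was 43.2% of aligned positions for Zfp36l1 and Zfp36l2, 32.5% for Zfp36 and Zfp36l1, and 28.2% for Zfp36 and Zfp36l2. The members are thus closest in the fingers, and the pair Zfp36l1 and Zfp36l2 is closer than either is to Zfp36.

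The 3′ UTRs of the members themselves hold the heptamer TATTTAT, the DNA form of the core element that the fingers bind, at 3 places each. Zfp36 has 774 bases of 3′ UTR, Zfp36l1 has 1835 and Zfp36l2 has 1822. The octamer, TATTTAT followed by T, occurs at 1 of these places in Zfp36, at 2 in Zfp36l1 and at 2 in Zfp36l2. Over all 21037 protein-coding genes with an annotated 3′ UTR, 27.6% hold the heptamer and 15.5% the octamer, read on the sense strand. The first octamer of each member is shown with its flanks, at chr7:28376954-28376976, chr12:80108425-80108447 and chr17:84184917-84184939 on the minus strand, with the heptamer in capitals. A match is a sequence and does not show binding.
Zfp36: gacgacttTATTTATtgtattaa
Zfp36l1: tcaaaacgTATTTATtgccaaac
Zfp36l2: atttaactTATTTATtatcttgt

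The libraries held between 21546552 and 25083552 reads on genes, and the smallest number of reads behind a value of a member was 3362, so counting error is small beside the differences between groups. Gtf2i, the deleted gene, had 1992 to 2864 normalized counts in the WT and 1523 to 1889 in the cKO libraries, a value over the whole gene and not only its deleted part. The sort markers followed the labels: Fcer2a (CD23) was at 24802 to 41973 normalized counts in FO and 3069 to 6708 in MZ libraries, and the 4 MZ markers Cr2 (CD21), Cd1d1, S1pr3 and Cd9 summed to 24216 to 28246 in FO and 102581 to 116291 in MZ libraries. Xist was at 25929.5 to 47002 in the WT and 21.7 to 14748 in the cKO libraries. The Y-linked Ddx3y was at 0.998 to 6.34 in the WT and 2682 to 5514 in the cKO libraries. cKO FO replicate 1 stood apart in holding both, with 14748 normalized counts of Xist and 2682 of Ddx3y. The other 3 cKO libraries had 21.7 to 89.7 of Xist. Sex-linked transcripts thus separate the genotypes as well, so genotype and the sex of the mice cannot be told apart. cKO MZ replicate 1 stood apart in the 6 erythroid markers, which summed to 13304 there and to 26 to 1007 elsewhere, and in the 10 granulocyte markers, which summed to 1879 there and to 24 to 105 elsewhere. The 8 T cell markers summed to 754 to 1281 and the 9 macrophage and monocyte markers to 405 to 1741. The 7 dendritic cell markers, of which 5 were tested, summed to 438 and 382 in the cKO MZ libraries and to 193 to 255 in the other 6. The 5 tested did not move together, with log2 differences between cKO and WT MZ B cells from -1.91 to 1.16. The part of these differences in the results on the members was not tested.

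Zfp36l2 differed most among the members between the groups. WT FO libraries had 15629 and 17634 normalized counts, and WT MZ libraries had 9069 and 8010.4. cKO FO libraries had 15042 and 8915, and cKO MZ libraries had 3388 and 3467. The levels fell into the order WT FO, cKO FO, WT MZ and cKO MZ, with means ± SD (n = 2 each) of 16631 ± 1418, 11978 ± 4332, 8539.6 ± 748 and 3427 ± 55.8. Neither WT FO and cKO FO nor cKO FO and WT MZ differed beyond their spread: cKO FO replicate 1 lay just under the lower WT FO library and cKO FO replicate 2 within the WT MZ values. Both cKO MZ libraries lay below every other library.

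Zfp36 showed a different order. WT FO libraries had 13467 and 24310.3 normalized counts, and WT MZ libraries had 25412 and 24856. cKO FO libraries had 13207 and 15669, and cKO MZ libraries had 20657 and 26826. The highest means were those of the MZ groups, 25134 ± 393 in WT and 23741.5 ± 4363 in cKO, and the FO groups followed with 18889 ± 7667 in WT and 14438 ± 1741 in cKO (SD, n = 2 each). WT FO replicate 2 stood at the level of the MZ libraries and WT FO replicate 1 at that of the cKO FO libraries. No neighbours in this order differed beyond their spread.

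Zfp36l1 was the steadiest member. WT FO libraries had 23030.5 and 21655 normalized counts, and WT MZ libraries had 25942 and 20801. cKO FO libraries had 23294 and 22313, and cKO MZ libraries had 22535.5 and 25991. All 8 libraries lay between 20801 and 25991 and no group stood beyond the spread of another, with means ± SD of 22343 ± 973 (WT FO), 23371 ± 3635 (WT MZ), 22803 ± 694 (cKO FO) and 24263 ± 2443 (cKO MZ), n = 2 each.

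**Figure D1:**
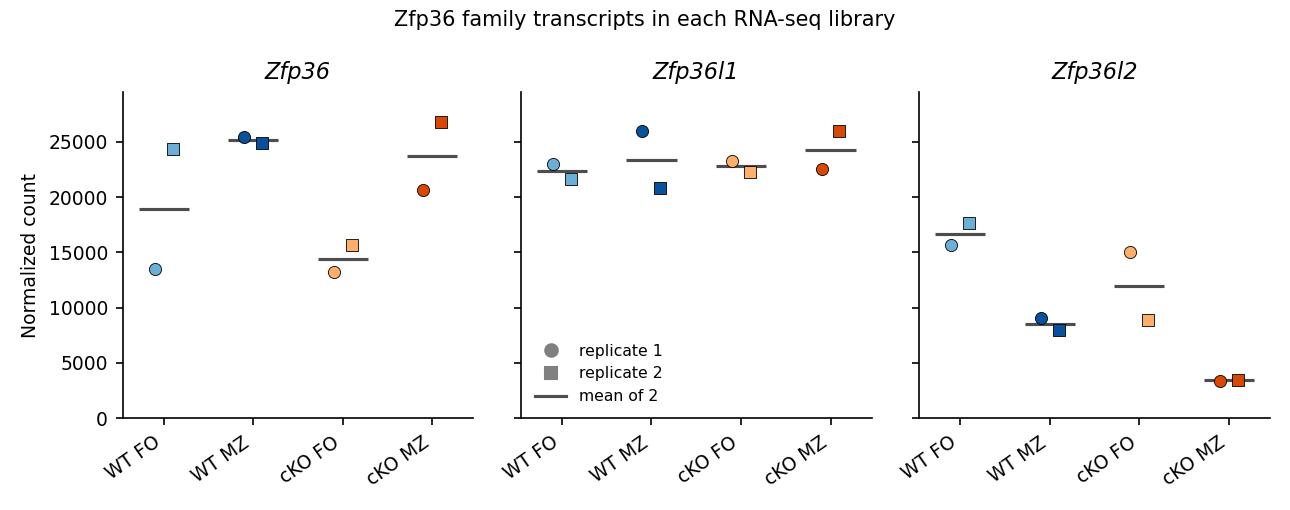
Normalized counts (y axis, from 0) of Zfp36, Zfp36l1 and Zfp36l2 in each of the 8 libraries, by group (x axis); circles are replicate 1, squares replicate 2 and bars the mean of 2. Zfp36l2 lies at 3388 and 3467 in cKO MZ B cells, below all other libraries, while Zfp36l1 stays between 20801 and 25991.

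Levels of the 3 genes can be compared with each other only per length, so each normalized count was divided by the length of the gene's exons, 3470 bases for Zfp36, 2990 for Zfp36l1 and 3530 for Zfp36l2. Zfp36l1 had the highest mean of the members in each group on this scale, with means from 7473 ± 325 normalized counts per kb for WT FO to 8115 ± 817 for cKO MZ B cells (SD, n = 2). Zfp36 followed with means from 4161 ± 502 in cKO FO to 7243 ± 113 in WT MZ, and its libraries overlapped those of Zfp36l1 in both MZ groups. Zfp36l2 had the lowest mean in each group, overlapped Zfp36 in both FO groups, and reached 971 ± 15.8 in cKO MZ B cells. The order of Zfp36 and Zfp36l1 depended on the length used: per kb of the longest transcript (2790 bases for Zfp36), Zfp36 had the higher mean in both MZ groups, at 9009 against 7816 in WT and 8510 against 8115 in cKO.

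The make-up of the family per kb is given as shares of the sum. Zfp36l2 held 26.8% ± 1.198 of the summed level of the 3 members for WT FO, 22.1% ± 6.69 for cKO FO, 13.8% ± 0.00736 for WT MZ and 6.14% ± 0.707 for cKO MZ B cells (SD, n = 2). Zfp36 held 30.3% ± 8.603 (WT) and 27.6% ± 5.04 (cKO) of it in FO and 41.6% ± 3.02 (WT) and 42.8% ± 2.28 (cKO) in MZ B cells. The share of Zfp36l1 lay between 37.6% and 52.2% in the 8 libraries. The sum itself was 17627 ± 2286 normalized counts per kb for WT FO, 17479 ± 1541 for WT MZ, 15180.5 ± 958 for cKO FO and 15928 ± 2090.3 for cKO MZ B cells, within 14449.6 to 19244 over the 8 libraries. With the longest transcripts as lengths, Zfp36 held 46.9% and Zfp36l1 40.5% in WT MZ, and 48.2% and 46.2% in cKO MZ B cells. These shares carry no test.

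**Figure D2:**
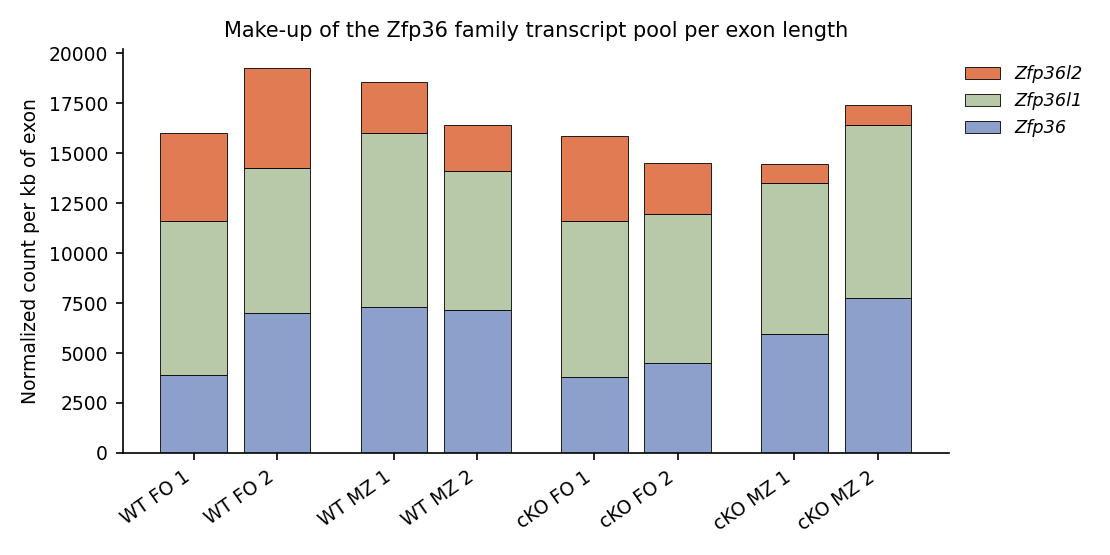
Normalized count per kb of exon (y axis, from 0) in each library (x axis), stacked by member. The Zfp36l2 part is 25.96% to 27.7% of the sum in WT FO, 13.8% in both WT MZ libraries and 5.64% to 6.64% in cKO MZ libraries.

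The subset comparison asked whether FO and MZ B cells differ in the family. Differences are given as log2 of the normalized count plus 1, FO minus MZ, from a limma fit over all genes. Calls needed both 1.5-fold and an adjusted p (Benjamini-Hochberg) of 0.05 or less. In WT, 1 of the 3 members was called higher in FO, where 4.62% of all genes tested were, and none higher in MZ, where 7.41% were. This was Zfp36l2, with a log2 difference of 0.96 (standard error 0.216, 95% confidence interval 0.46 to 1.46, limma adjusted p = 0.0214), 1.95-fold. Both WT FO libraries lay above both WT MZ libraries. The call was lost when any one of the WT libraries was left out, with limma adjusted p between 0.0509 and 0.0842, while the difference stayed between 0.87 and 1.05.

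In cKO, 1 of 3 members was again called higher in FO, with 5.54% of all genes, and none higher in MZ, with 8.18%. Zfp36l2 was 3.38-fold higher in cKO FO than in cKO MZ B cells, a log2 difference of 1.76 (standard error 0.216, 95% confidence interval 1.26 to 2.26, limma adjusted p = 0.00158). Both cKO FO libraries were above both cKO MZ libraries. Leaving out cKO FO replicate 2, the lower of its pair, gave 2.13, and leaving out cKO FO replicate 1 gave 1.38. The call held under each alternative run.

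With both genotypes fitted together, Zfp36l2 was 2.57-fold higher in FO (log2 difference 1.36, standard error 0.195, limma adjusted p = 0.000723), where 19.5% of all genes were called and 7.94% were higher in FO. Zfp36 was called higher in MZ, as 11.6% of all genes were, with a log2 difference of -0.59 (standard error 0.175, limma adjusted p = 0.0261), which is 1.51-fold and so just past the fold cutoff. It fell short of that cutoff by DESeq2 and edgeR on the recovered reads, at -0.57 in both. The adjusted p of Zfp36 passed the threshold no longer without WT FO replicate 1 (-0.45), cKO FO replicate 1 (-0.52), cKO FO replicate 2 (-0.62) or cKO MZ replicate 2 (-0.49), at limma adjusted p between 0.0540 and 0.0833.

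Zfp36 within a single genotype was not called. WT gave a log2 difference of -0.47 (standard error 0.259, limma adjusted p = 0.266), and cKO gave -0.71 (limma adjusted p = 0.0963). The WT value rested on which WT FO library was kept: it was -0.90 without WT FO replicate 2 and -0.05 without WT FO replicate 1. Of the 16 alternatives in WT, 1 met the call, the run without WT FO replicate 2. In cKO, both FO libraries lay below both MZ libraries. The difference met the call with DESeq2 (14.9% of all genes) and in a fit of the 4 cKO libraries alone. It also met the call with a block for the replicate number, though labels do not say that these numbers pair the samples. Leaving out either WT FO library gave the call as well, and those libraries enter this contrast only through the shared spread. Zfp36l1 had log2 differences of -0.06 in WT and -0.09 in cKO, and -0.07 over both genotypes (95% confidence interval -0.26 to 0.12, limma adjusted p = 0.538).

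For a single gene without sharing of the spread, an exact two-sided permutation test of 4 FO against 4 MZ libraries cannot give less than 0.0286. The exact test gave p = 0.0571 for Zfp36 and for Zfp36l2 and 0.371 for Zfp36l1. The 4 FO libraries of Zfp36l2 lay between 8915 and 17634 and the 4 MZ libraries between 3388 and 9069, overlapping through cKO FO replicate 2 and WT MZ replicate 1 alone. For Zfp36 the ranges were 13207 to 24310.3 in FO and 20657 to 26826 in MZ, overlapping through WT FO replicate 2. The numbers of libraries within a genotype, 2 against 2, allow no exact permutation p below 0.333.

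The genotype comparison asked how the family differs between cKO and WT in each subset. Loss of TFII-I, the protein of Gtf2i, cannot be told apart here from the Cre allele or from sex. In MZ B cells none of the 3 members was called by limma, as 0.0339% of all genes were called in either direction (5 of 14761). Zfp36l2 came nearest, 2.49-fold lower in cKO with a log2 difference of -1.31 (95% confidence interval -1.82 to -0.81, limma adjusted p = 0.282), at rank 18 of all genes by p and rank 55 by the size of a negative difference. DESeq2 on the recovered reads called it (-1.31, DESeq2 adjusted p = 1.19e-06), as it called 0.325% of all genes, and edgeR did not (-1.31, edgeR adjusted p = 0.380). The limma adjusted p over the other settings reached 0.822. Of the 16 alternatives 3 called it: DESeq2 and the limma fits without cKO FO replicate 1 or cKO FO replicate 2, which enter this contrast only through the shared spread. The limma adjusted p was then 0.0257 and 0.0270.

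The difference of Zfp36l2 in MZ B cells was of like size in each library left out, between -1.40 and -1.22. Without cKO MZ replicate 1, the library with erythroid and granulocyte transcripts, it was -1.30, and without cKO MZ replicate 2 it was -1.33. The dendritic cell markers summed to 438 and 382 in the cKO MZ libraries, the highest of the 8 libraries. Those tested moved in both directions, and their part was not tested. In bulk RNA, fewer cells that carry the transcript and less transcript per cell cannot be told apart. Zfp36 and Zfp36l1 had differences of -0.09 (95% confidence interval -0.70 to 0.51) and 0.06 (95% confidence interval -0.24 to 0.36) in MZ B cells, each with a limma adjusted p of 0.998.

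In FO B cells none of the 3 members was called, with 0.0677% of all genes called. Zfp36l2 had a log2 difference of -0.52 (95% confidence interval -1.02 to -0.02, limma adjusted p = 1). The difference was -0.14 without cKO FO replicate 2 and -0.90 without cKO FO replicate 1, the library with both Xist and Ddx3y. Which of the 2 libraries stands off cannot be told from a pair. In cKO FO replicate 2 the 4 MZ markers summed to 26840.2 normalized counts, between 24216 in cKO FO replicate 1 and 28246 in WT FO replicate 2, and its Fcer2a of 41973 was the highest of the 8 libraries. Zfp36 had a difference of -0.33 (limma adjusted p = 1), which turned to 0.10 without WT FO replicate 2, and Zfp36l1 one of 0.03 (95% confidence interval -0.27 to 0.33).

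With both subsets fitted together, none of the 3 members was called by limma, and 0.149% of all genes were. Zfp36l2 had a log2 difference of -0.92 (standard error 0.195, 95% confidence interval -1.36 to -0.47, limma adjusted p = 0.217), called by DESeq2 (-0.89, DESeq2 adjusted p = 0.000986, beside 0.528% of all genes) and without cKO FO replicate 1 (-1.15, limma adjusted p = 0.00779). Zfp36 and Zfp36l1 had -0.21 and 0.04. The interaction, the difference in MZ minus that in FO B cells, was -0.79 for Zfp36l2 (standard error 0.305, 95% confidence interval -1.50 to -0.09, limma adjusted p = 1), so a stronger difference in MZ than in FO B cells was not shown. It was -0.42 without cKO FO replicate 1 and -1.17 without cKO FO replicate 2. No gene had a called interaction by limma (0% of genes), DESeq2 or edgeR, and 94, 67 and 106 had an unadjusted p under 0.05 by these tools.

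**Figure D3:**
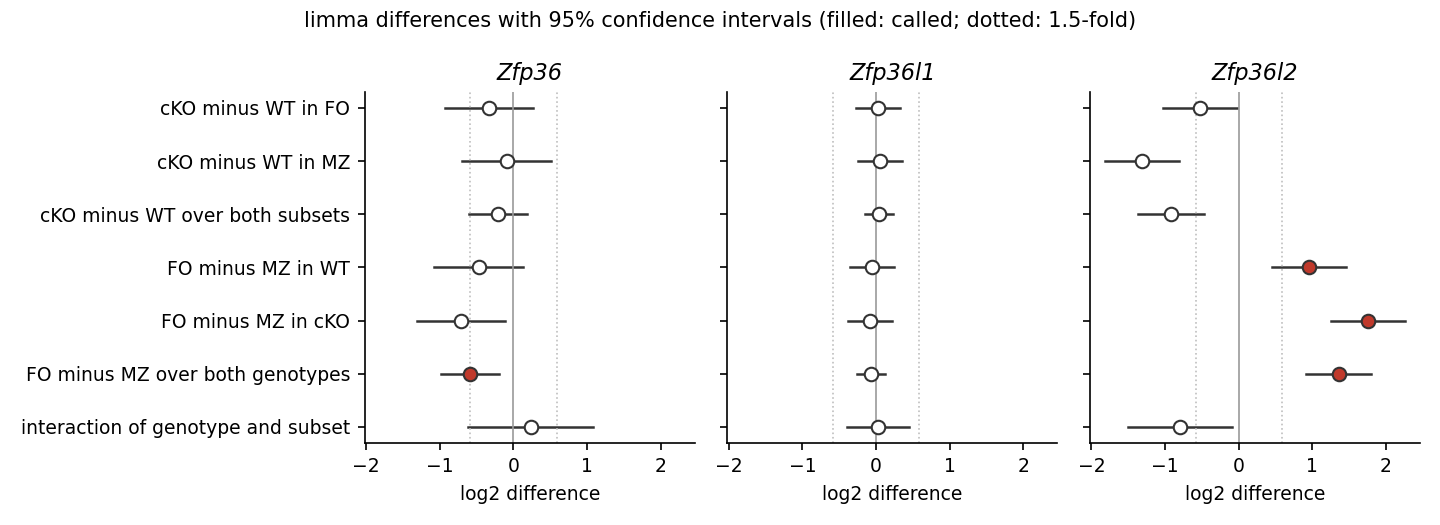
Log2 differences (x axis) of the members in the 7 comparisons (y axis) from limma, with 95% confidence intervals as lines. Filled points were called and dotted lines mark 1.5-fold; Zfp36l2 lies at 0.96, 1.76 and 1.36 in the subset comparisons and at -1.31 in cKO minus WT MZ B cells, uncalled.

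Genes around the family were read from 8 lists of 112 genes, of which 103 were tested. The lists hold factors that act in decay or on the family, other mRNA stability factors, known targets and immediate early genes. In the genotype comparisons none of the 103 was called by limma, DESeq2 or edgeR, with 6, 7 and 5 at an unadjusted p under 0.05 by these tools in MZ, 0, 3 and 1 in FO, and 10, 7 and 7 over both subsets. The CCR4-NOT deadenylase, the complex that the family recruits, had 10 of 11 subunits with a negative difference between cKO and WT MZ B cells and a median of -0.07, beside -0.01 over all genes tested. Under quantile normalization 7 of 11 were negative (median -0.03). The scaffold Cnot1 stood at 9903 and 9933 normalized counts in the WT FO, 9771 and 9227 in the WT MZ, 10189 and 9894 in the cKO FO, and 9199 and 9309 in the cKO MZ libraries. The 11 subunits summed to between 29071 and 34973 in the 8 libraries.

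Between FO and MZ B cells, none of the 11 CCR4-NOT subunits, the 9 other deadenylation factors, the 10 decapping and 5′ to 3′ decay genes or the 14 exosome and 3′ to 5′ decay genes tested was called by limma, DESeq2 or edgeR in WT, cKO or both, where limma called 12%, 13.7% and 19.5% of all genes. At an unadjusted limma p under 0.05 there were 2, 2, 2 and 1 of them in WT. The medians in WT were 0.09, -0.06, 0.11 and 0.00, beside 0.00 over all genes.

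The kinases, phosphatase and 14-3-3 proteins that act on phosphorylated family members held 1 gene of 13 called in WT, beside 12% of all genes. Rps6ka1 (RSK1) went from 1333 and 1882 normalized counts in the WT FO libraries to 3422 and 3733 in the WT MZ libraries, a log2 difference of -1.17 (standard error 0.156, limma adjusted p = 0.00253). In cKO it was called in the same direction (-1.05, limma adjusted p = 0.00353). The 14-3-3 gene Ywhah was called higher in FO in cKO (0.77, limma adjusted p = 0.00398) and over both genotypes (0.61), and had 0.46 in WT, under 1.5-fold. Without cKO FO replicate 1 or cKO MZ replicate 2 the value over both genotypes of Ywhah was also under 1.5-fold (0.53 and 0.56). The WT FO libraries had 1269 and 1164 and the WT MZ libraries 896 and 871 normalized counts, and the cKO FO libraries had 1316 and 1088 and the cKO MZ libraries 727 and 681.

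Among the 16 other proteins that act on mRNA stability through the 3′ end, 3 were called in each genotype, beside 12% of all genes in WT and 13.7% in cKO. Zc3h12c, a Regnase-type endonuclease, had 279 and 275 normalized counts in the WT FO libraries against 4729 and 3508 in WT MZ B cells, and cKO FO libraries had 311 and 279 against 3381 and 3715 in the cKO MZ libraries. The log2 difference was -3.87 in WT (standard error 0.148, limma adjusted p = 1.28e-05), the largest of this list. Its relative Zc3h12d was also higher in MZ, with -0.61 in WT (limma adjusted p = 0.0132) and -0.73 for the cKO libraries (limma adjusted p = 0.00545), and the WT call was lost without WT FO replicate 1 (-0.50) or WT MZ replicate 2 (-0.52). Arid5a, which is known to stabilize inflammatory mRNAs, was called higher in FO in WT (0.73, limma adjusted p = 0.0332) and cKO (0.83, limma adjusted p = 0.0182). Without WT FO replicate 1, where it had 4554 normalized counts, the WT difference of Arid5a was 0.47 (limma adjusted p = 0.138). The WT call of Arid5a was also lost without either WT MZ library, without either cKO MZ library, without the filter on low counts and with only the 4 libraries compared (limma adjusted p 0.0521 to 0.122), and its cKO call was lost without cKO FO replicate 1 or either cKO MZ library.

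Transcripts known as targets of the family numbered 20, of which 12 passed the filter on low counts. The 6 cytokine transcripts Il2, Il6, Ifng, Csf2, Cxcl1 and Cxcl2 had at most 11.96 normalized counts in any library. Between FO and MZ B cells 2 of 12 were called in WT, both higher in MZ, beside 12% of all genes called and 7.41% higher in MZ. Myc, the growth regulator, had 7652 and 5852 normalized counts in the WT FO and 31481 and 17298 in the WT MZ libraries (log2 difference -1.80, limma adjusted p = 0.00926). Il10 had 13.0 and 10.5 in the WT FO and 274 and 291 in the WT MZ libraries (-4.48, limma adjusted p = 0.000126). Both were also called in cKO, at -1.42 and -4.01, and the cKO call of Myc was lost without cKO FO replicate 2 or either cKO MZ library (-1.07 to -1.62).

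Klf2 is known for restraining MZ-type location and phenotype in B cells, and Irf8 is a regulator of the FO and MZ choice. Klf2 stood at 25736 and 16009.6 normalized counts in the WT FO, 14383 and 5618 in the WT MZ, 21384 and 24809 in the cKO FO, and 7893 and 9795 in the cKO MZ libraries. Every FO library was above every MZ library. The log2 difference of Klf2 was 1.18 in WT (limma adjusted p = 0.0933) and 1.39 for the cKO libraries (limma adjusted p = 0.0499), a call at the threshold that was lost with any cKO library left out, with a pseudocount of 0.5, without the filter on low counts, under quantile normalization and by edgeR. Over both genotypes it was called at 1.28 (limma adjusted p = 0.00564). Irf8 stood at 15106 and 14282 in the WT FO, 13966 and 11334 in the WT MZ, 14930 and 17313 in the cKO FO, and 11998 and 12105 in the cKO MZ libraries, and was not called (0.22 in WT and 0.42 in cKO).

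Between cKO and WT MZ B cells none of the 12 targets was called by limma, DESeq2 or edgeR, with 1, 2 and 1 at an unadjusted p under 0.05 by these tools. The list had 3 positive and 9 negative differences and a median of -0.05, beside -0.01 over all genes, and the split was 6 and 6 without cKO MZ replicate 1 (-0.03). Notch1, a receptor of the Notch pathway, had 1618 and 1350 normalized counts in the WT MZ and 952 and 1182 in the cKO MZ libraries, with a log2 difference of -0.48 (95% confidence interval -0.92 to -0.03, limma adjusted p = 0.998). Myc had 22683 and 30145 in cKO MZ, a difference of 0.16 (95% confidence interval -0.59 to 0.92). Klf2 had -0.03, Irf8 had -0.06, Ccnd3, the D-type cyclin, had -0.18 and Tnf had -0.02. In FO B cells these differences lay between -0.30 for Tnf and 0.55 for Myc, all with a limma adjusted p of 1.

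**Figure D4:**
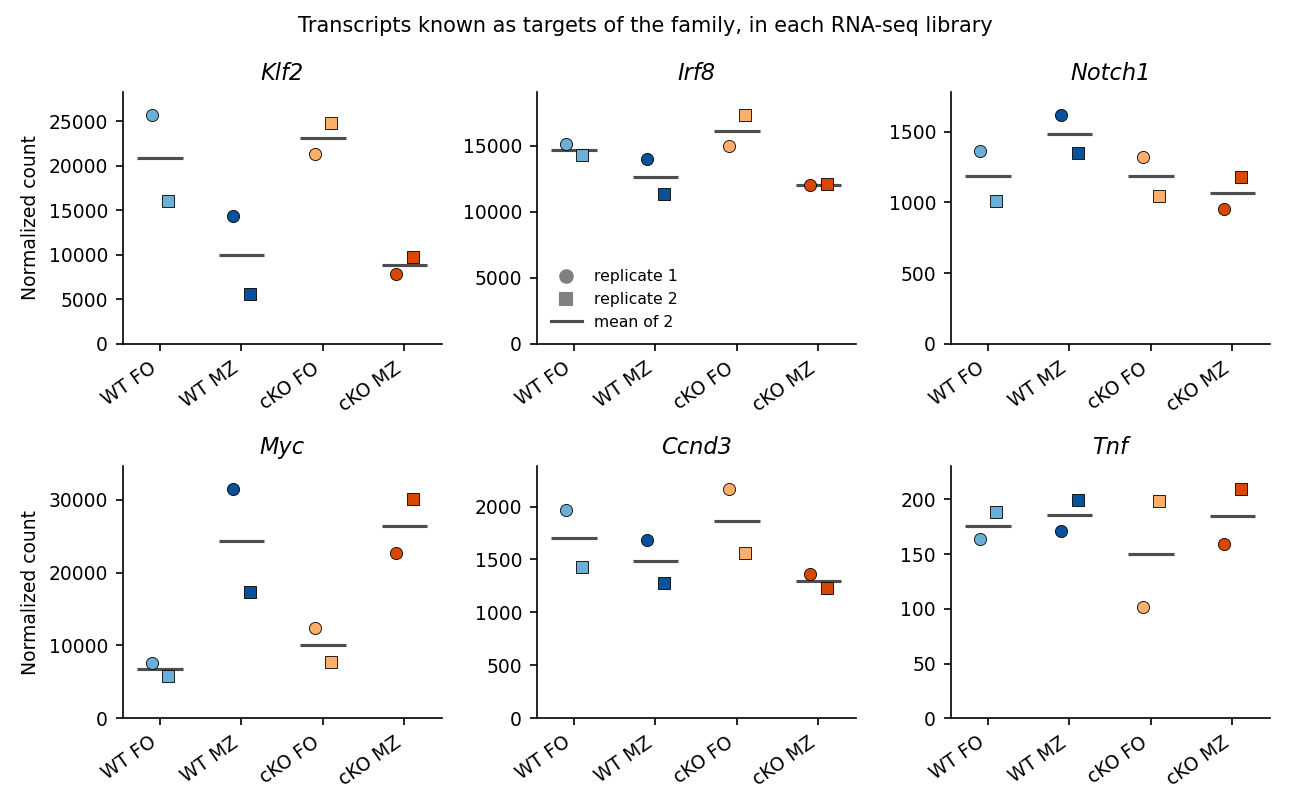
Normalized counts (y axes, from 0, each panel on its own scale) of 6 transcripts known as targets of the family, by group (x axis); circles are replicate 1, squares replicate 2 and bars the mean of 2. Myc lies between 5852 and 12451 in the FO and between 17298 and 31481 in the MZ libraries, and Klf2 between 16009.6 and 25736 and between 5618 and 14383.

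For the targets whose 3′ UTR holds the octamer, 1 such place is shown. Klf2 and Irf8 hold 1 each, Notch1 holds 2 and Tnf holds 6, while Myc and Ccnd3 hold no heptamer in the annotated 3′ UTR. The runs below lie on the plus strand at chr8:72320991-72321013 and chr8:120756616-120756638, and on the minus strand at chr2:26459363-26459385 and chr17:35199650-35199672, with the heptamer in capitals.
Klf2: cagactgcTATTTATtggacctt
Irf8: tgtccaaaTATTTATttttgtat
Notch1: ttttttagTATTTATttatgtac
Tnf: tatgaatgTATTTATttggaagg

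Of the 11497 genes tested with an annotated 3′ UTR, 1914 (16.6%) held the octamer, 1483 held the heptamer alone and 8100 held neither. The genes with the octamer had a median log2 difference of -0.05 between cKO and WT MZ B cells, beside -0.02 for those with neither and -0.03 for all of them. In the FO and MZ comparison of WT, 13.7% of the genes with the octamer were called beside 13.5% of all, with 6.79% higher in FO beside 5.06%, and 6.90% higher in MZ beside 8.44%. Their median difference was 0.05 beside -0.00420 for all. The classes differ in length, with a median 3′ UTR of 2234 bases for genes with the octamer and 1159 bases for all, and the part of length was not tested.

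Genes of the Zfp36 family are known to be induced within minutes of stimulation, so 18 immediate early genes were read beside it. Their summed level lay between 121302 in WT MZ replicate 2 and 191142 in cKO MZ replicate 2. The WT MZ libraries alone nearly spanned this range, since replicate 1 had 188941. Zfp36l1 ran with this sum over the 8 libraries (Pearson r 0.90, Spearman rho 0.98), and r was 0.87 in the 6 libraries left without WT FO replicate 2 and WT MZ replicate 2. Zfp36 had r -0.20 and rho 0.17, and Zfp36l2 had r -0.18 and rho -0.05. Without the 2 libraries farthest from the median these r were 0.43 and 0.11, so their sign rests on those libraries. These are descriptions over libraries that share groups and depth. Atf3 showed the spread within a group most plainly, as WT MZ replicate 1 held 6474 normalized counts of it and WT MZ replicate 2 held 693.

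Between the genotypes none of the 18 was called, by limma, DESeq2 or edgeR, with 16 of 18 positive in MZ (median 0.20) and 16 of 18 positive in FO B cells (median 0.34), beside medians of -0.01 over all genes in both. At an unadjusted p under 0.05 there were 0, 2 and 0 of them in MZ and 0, 3 and 1 in FO B cells by these tools. Both medians moved when single libraries were left out. Without WT MZ replicate 2 the median was -0.21 in MZ (6 of 18 positive), and without cKO MZ replicate 2 it was 0.01 (10 of 18). Without WT FO replicate 2 the median was -0.04 in FO B cells (8 of 18). Between FO and MZ B cells of WT, Ier2 was called higher in FO (0.92, limma adjusted p = 0.00331) and Egr2, known as an early target of antigen receptor signals, higher in MZ (-1.24, limma adjusted p = 0.0259). Both were called in cKO as well, at 0.73 and -1.17. The WT call of Egr2 was lost without either WT FO library or WT MZ replicate 1 and its cKO call without cKO FO replicate 1 or cKO MZ replicate 2, and the cKO call of Ier2 without cKO MZ replicate 1 (0.66). Over both genotypes Jund (0.98) and Dusp2 (0.59) were called higher in FO and Jun (-0.84) higher in MZ. Of these, Dusp2 and Jun were each lost with 4 of the 8 libraries left out singly.

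**Figure D5:**
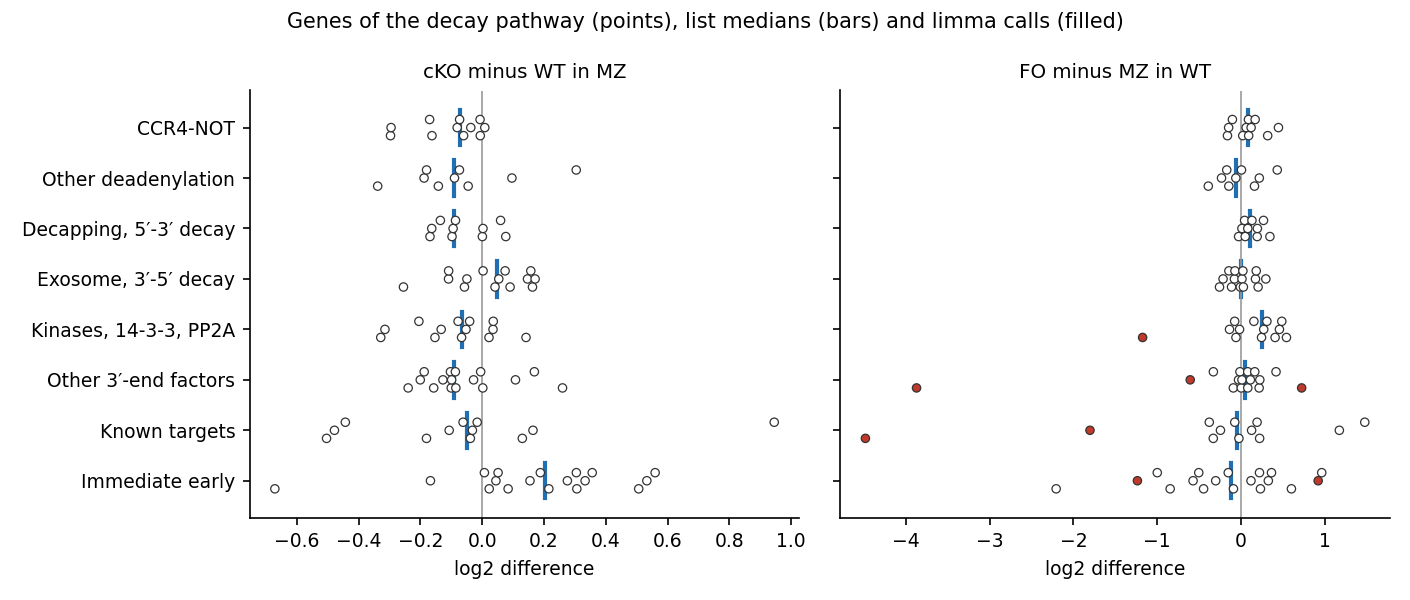
Log2 differences (x axes, on separate scales) of the 103 tested genes in 8 lists around the family (y axis), for cKO minus WT MZ B cells and FO minus MZ WT B cells; bars are list medians and filled points limma calls. No point is filled on the left; on the right 8 are, led by Il10 at -4.48 and Zc3h12c at -3.87.

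The members had no common pattern. Over the 8 libraries the correlation of log2 levels was 0.20 for Zfp36 and Zfp36l1, -0.48 for Zfp36 and Zfp36l2, and -0.32 for Zfp36l1 and Zfp36l2 (Pearson r, with Spearman rho of 0.19, -0.40 and -0.12). Without the 2 libraries farthest from the median of the first gene, r was 0.36, -0.05 and 0.15, so the negative values rest on those libraries.

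The genes whose pattern over the 8 libraries was most like that of a member were picked from 10175 genes with a mean of at least 100 normalized counts, by Pearson r of log2 levels. For Zfp36l2 these included Ercc6 (r 0.99), Osbp, Rnf2 and Poldip3. Pearson r does not take in the size of a difference. Ercc6 stood between 2315 and 2811 normalized counts, and Zfp36l2 between 3388 and 17634. Rnf2, a Polycomb ubiquitin ligase, stood at 2069.7 and 2144 normalized counts in the WT FO, 1362 and 1412 in the WT MZ, 2108 and 1730.2 in the cKO FO, and 988 and 1023 in the cKO MZ libraries. It shares with Zfp36l2 the lower cKO FO replicate 2 and the lowest values in cKO MZ.

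For Zfp36 the nearest genes were Gys1 (r 0.99), Lyst, Rac2, Mipol1 and Gnpda2. Gys1, the glycogen synthase of muscle and other tissues, stood at 487 and 737 normalized counts in the WT FO, 770.5 and 801 in the WT MZ, 489 and 578 in the cKO FO, and 696 and 805 in the cKO MZ libraries, and so shares the high WT FO replicate 2. For Zfp36l1 they were Slc3a2 (r 0.95), Ccdc86, Trappc9, Lpcat1 and Rmnd5b. Slc3a2, the heavy chain of amino acid transporters, had its highest values in WT MZ replicate 1 (6165) and cKO MZ replicate 2 (4813), the same libraries as Zfp36l1. These values of r are descriptions over 8 libraries in 4 groups, the highest of the 10175 searched.

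Genes on the opposite strand overlap the exons of each member, and the sources used here do not state whether reads were counted by strand. Gm44710 shares 125 exon bases with Zfp36 and had 6.66 to 15.9 normalized counts, and AC132455.1 shares 105 exon bases with Zfp36l2 and had 3.99 to 12.4. Gm26669 shares 1672 exon bases with Zfp36l1, and its identifier was not found among the 27928 genes with a value. Reads from such pairs cannot be told apart without strand.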

How the data were processed

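RNA-seq libraries (50-base single-end reads, depleted of ribosomal RNA) were made from sorted FO and MZ B cells, 2 per group, 8 in all. Nothing states that replicates came from separate mice, so p-values measure the spread between these libraries, which may be technical. The cKO FO pair, at 14748 and 67.4 normalized counts of Xist, did not hold repeats of the same RNA. The submitters' notes name HISAT2, featureCounts, HTSeq, DESeq2 and mm10. The authors deposited a signal of normalized counts for 27928 genes, made by dividing reads by a DESeq2 size factor per library. 256343 blank lines were left out. Whole reads were recovered for 100% of values (tolerance 0.01 of a read).

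Log2(normalized count + 1) was fitted with limma 3.58.1 (R 4.3.3; lmFit, eBayes with trend) on 14761 genes (mean at or above 10), in 1 fit of 4 groups, or with subset or genotype as a term for the comparisons over both. Calls needed 1.5-fold, the cutoff of the study, and an adjusted p of 0.05 or less (Benjamini-Hochberg, over all genes tested). Alternatives were a pseudocount of 0.5, no filter, quantile normalization, a replicate block, DESeq2 1.42.0 and edgeR 4.0.16 (quasi-likelihood, TMM) on recovered reads, only the 4 libraries compared, no fold cutoff and each library left out. Exon lengths, UTRs and coding stretches came from GENCODE M21 on GRCm38, which holds 27872 of the identifiers. 3′ UTRs were the longest annotated for a protein-coding gene, and motifs were searched on the sense strand, overlaps included. Sequences were read from the transcript sequences of GENCODE M21, and their genome positions from its exon coordinates.

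On simulated counts for cKO against WT MZ B cells (14650 genes), limma found 94 of the 97 genes set to 4-fold, 77 of the 98 set to 2-fold and 3 that were unaltered. For edgeR these were 93, 78 and 3, and for DESeq2 they were 92, 74 and 15. The simulated spreads were drawn around the median spread of all genes, without outlying libraries. These rates therefore need not hold for the measured data or for a given gene.

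The members and the lists were chosen with earlier results of these data known. Named are the members, Gtf2i, Klf2, Irf8, Tnf, Myc, Notch1 and Ccnd3, list genes called by limma (at most 4 per direction by p), and the 5 genes most like each member, less those not reported here. Cnot1, Atf3, Zfp36l3, the scarce cytokines, the overlapping genes, Xist and Ddx3y were named after their values were seen. 8 ATAC-seq samples were not analysed here.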

Additional observations from a re-analysis of the deposited data

How the results depend on the processing

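Depth does not limit the values of the members, and the 2 libraries per group do. Zfp36 between FO and MZ in cKO (-0.71) was called with the replicate block (limma adjusted p = 0.0305), with only the 4 libraries compared (-0.71) and by DESeq2 (-0.72), and its difference over both genotypes was not called by DESeq2 (-0.57) or edgeR (-0.57). DESeq2 called Zfp36l2 between cKO and WT in MZ (-1.31) and over both subsets (-0.89). The cause was not tested. Labels do not say that replicate numbers pair the samples. Deviations of same-numbered libraries correlated at 0.591 between WT FO and WT MZ but at -0.00151 between cKO FO and cKO MZ. Across genotypes the value was -0.296 between WT MZ and cKO MZ. The block left the count of genes called in MZ at 5 and changed no other call of a member. Exchanging the numbers of cKO MZ, an alternative chosen after seeing the data, gave 12 genes called in MZ, 16 in FO and 50 over both subsets.

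Counts over all genes moved with the test: DESeq2 called 48 genes between genotypes in MZ, 25 in FO and 78 over both subsets, where limma called 5, 10 and 22. Only the 4 libraries compared gave 4 in FO and 1014 between FO and MZ in WT (limma 1776), with fewer samples, and no fold cutoff gave 5589 between FO and MZ over both genotypes (2877). With the longest transcript (2790 bases) as the length, Zfp36 had a mean of 7366 normalized counts per kb over the 8 libraries in place of 5922, and Zfp36 and not Zfp36l1 then had the highest mean in both MZ groups.

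With each library left out in turn, Zfp36 ranged from -0.28 to 0.094 between genotypes in MZ, from -0.76 to 0.10 in FO, from -0.90 to -0.048 between FO and MZ in WT, from -0.90 to -0.52 in cKO, from -0.79 to -0.45 over both genotypes, and from -0.19 to 0.66 in the interaction. Zfp36l1 ranged from -0.10 to 0.22 between genotypes in MZ, from -0.015 to 0.074 in FO and from -0.022 to 0.11 over both subsets, from -0.22 to 0.10 between FO and MZ in WT, from -0.19 to 0.017 in cKO, and from -0.13 to 0.19 in the interaction. Zfp36l2 ranged from -1.40 to -1.22 between genotypes in MZ, from -1.15 to -0.80 over both subsets, and from 0.87 to 1.05 between FO and MZ in WT. The number of genes called ranged from 4 to 11 between genotypes in FO and from 1073 to 2119 between FO and MZ in cKO. In all, 413 values under alternatives stayed the same. For a member's difference this means the same direction and side of the threshold, and for gene counts and per-length means a change within the limits used. Many of these runs leave out a library that does not enter the comparison. Another 14 values changed sign, 10 lost and 11 gained a call, and 19 others moved by more than the limits used.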
